A study of Mus musculus with 2 samples.

Results

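Lysozymes and the small secreted proteins that macrophages release with them were followed through single lung immune cells of mice that had inhaled diesel exhaust particles (DEP) and of unexposed mice. The genes described are Lyz1, Lyz2, Chil3, Retnla, Ear1 and Ear2, 6 of the 31053 genes in the deposited count tables, taken by their symbol. All 6 were found in both tables. The DEP exposed library came from mice kept at 500 µg/m3 of DEP for 1 h a day, 5 days a week, over 2 weeks, and was labelled Ccr2-/- (KO), CD45.3+. The Control library came from mice given no DEP and was labelled Ccr2-/- (KO), CD45.1+. There was 1 library in each group, and whether a library pooled animals is not given in the sources used here. The exposure cannot be told apart from the CD45 label or from any other difference between the animals. CD45+ cells had been sorted from perfused and enzymatically digested lungs, so both libraries hold leukocytes. The 3′ ends of transcripts were counted as unique molecular identifiers (UMIs), 1 per captured molecule.

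Lysozyme cleaves the peptidoglycan of bacterial cell walls, and mice carry neighbouring genes for it: Lyz1, known from Paneth cells of the gut, and Lyz2, the lysozyme of macrophages, monocytes and neutrophils. Chil3 (Ym1) is a chitinase-like lectin with no known chitinase activity, and Retnla (FIZZ1) is a secreted resistin-like protein; both serve as marks of mouse macrophages that have met type 2 cytokines. Ear1 and Ear2 belong to the ribonuclease A superfamily and are mouse relatives of the human eosinophil granule ribonucleases.

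Near-identical copies lie among these genes. On mm10, Lyz1 (ENSMUSG00000069515) spans chr10:117287797-117292868 and Lyz2 (ENSMUSG00000069516) spans chr10:117277331-117282321, both on the minus strand, with 5475 bases between them. Ear1 (ENSMUSG00000072601) spans chr14:43818765-43875517 on the minus strand, and Ear2 (ENSMUSG00000072596) spans chr14:44102654-44103534 on the plus strand, 227136 bases away. Chil3 (ENSMUSG00000040809) lies at chr3:106147554-106167564 on the minus strand and Retnla (ENSMUSG00000061100) at chr16:48842551-48844461 on the plus strand. The longest coding transcripts of Ear1 and Ear2 in GENCODE M21 were identical at 96.2% of aligned bases, and those of Lyz1 and Lyz2 at 95.8%. Because the assay reads 3′ ends, the last 300 bases matter most, and there the identity was 98.7% for the Ear pair and 96.6% for the Lyz pair. Among windows of 90 bases in that end, 24.6% of those of Ear1 and 1.90% of those of Ear2 also occurred in a transcript of another gene, against 7.11% for each lysozyme gene and none of the 211 windows for Chil3 or Retnla. The last 90 coding bases show how little separates Ear1 from Ear2; capitals mark the 1 base that differs (mm10, chr14:43818945-43819034 minus strand for Ear1, chr14:44103265-44103354 plus strand for Ear2):
Ear1: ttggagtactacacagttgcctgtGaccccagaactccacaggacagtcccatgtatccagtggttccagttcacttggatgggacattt
Ear2: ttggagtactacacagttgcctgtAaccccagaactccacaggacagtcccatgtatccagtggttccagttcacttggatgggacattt

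The sequence upstream of each copy is shown because the 2 copies of each pair were spread differently over the cell classes. Over the 250 bases before the RefSeq start (GRCm38.p6; chr14:43819640-43819889 minus strand for Ear1, chr14:44102404-44102653 plus strand for Ear2) the Ear genes were identical at 246 of 248 aligned positions, 99.2%. The Ear1 window lies inside the GENCODE span of Ear1 given above, and the bases before the GENCODE start of Ear1 were not compared. Capitals mark the 2 unlike positions:
Ear1: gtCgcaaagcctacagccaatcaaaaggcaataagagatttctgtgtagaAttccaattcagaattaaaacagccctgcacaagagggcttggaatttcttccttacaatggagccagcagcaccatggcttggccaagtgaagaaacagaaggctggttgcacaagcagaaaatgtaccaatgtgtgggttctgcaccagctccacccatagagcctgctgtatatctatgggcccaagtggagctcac
Ear2: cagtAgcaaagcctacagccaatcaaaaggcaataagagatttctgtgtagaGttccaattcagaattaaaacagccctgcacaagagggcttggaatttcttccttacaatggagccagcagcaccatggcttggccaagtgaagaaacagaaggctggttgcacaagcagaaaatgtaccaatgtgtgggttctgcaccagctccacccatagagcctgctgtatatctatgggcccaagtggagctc

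The lysozyme genes were less alike upstream. Over 201 bases that no GENCODE exon of either gene covers (GRCm38.p6; chr10:117292918-117293118 for Lyz1, chr10:117282322-117282522 for Lyz2, both minus strand), 151 of 202 aligned positions were identical, 74.8%, and capitals mark the unlike ones:
Lyz1: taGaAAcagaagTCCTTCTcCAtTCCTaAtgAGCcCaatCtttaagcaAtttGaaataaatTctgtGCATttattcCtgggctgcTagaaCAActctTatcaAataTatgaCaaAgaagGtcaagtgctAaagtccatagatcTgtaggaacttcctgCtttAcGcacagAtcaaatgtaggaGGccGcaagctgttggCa
Lyz2: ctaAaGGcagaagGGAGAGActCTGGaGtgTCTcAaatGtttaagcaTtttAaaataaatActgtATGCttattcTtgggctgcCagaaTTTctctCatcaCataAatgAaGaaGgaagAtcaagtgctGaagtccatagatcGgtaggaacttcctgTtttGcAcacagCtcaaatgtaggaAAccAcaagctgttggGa
Within the 250 bases before each RefSeq start, on either strand, GGAAGT (a core bound by PU.1, the ETS factor of myeloid cells) occurred in Lyz1, Lyz2, Chil3 and Retnla, and in 5401 of 27025 mouse promoters of that length. TTGCNNAA (a core of the C/EBP family) occurred in Lyz1, Retnla, Ear1 and Ear2, and in 2582 of them, 9.55%. The STAT6 palindrome occurred in Retnla alone among the 6, and in 1585 promoters. TATAAA also occurred in Retnla alone, and in 3504 promoters. No matches of different motifs overlapped in these 6 windows, and a match is a run of letters, not a shown binding site.

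The DEP exposed library held 67030914 UMIs in 10000 barcodes and the Control library 62047730 UMIs in 10312, and 23 barcodes occurred in both. After filters and removal of predicted doublets, 8690 cells were kept in the DEP exposed and 8940 in the Control library, with median depths of 4158 UMIs per DEP exposed cell and 3673 per Control cell. Cells were put into classes by counting markers, none of them a gene described here or a relative. That gave 3895 myeloid cells in the DEP exposed and 3795 in the Control library. In each library 9.1% of kept cells carried markers of more than 1 class; these were deeper, with medians of 12802 UMIs in the DEP exposed and 10613 in the Control library, and are called ambiguous. In the 7 classes that reached 50 cells in both libraries, each class's own markers were all detected except Apoc2 of nonclassical monocytes, at 0 in the Control library. Of their cells, 92.8% to 100% fell in a cluster of the same name. No cell passed as an eosinophil, 0 of 8690 in the DEP exposed and 0 of 8940 in the Control library. For cells that pass the gate, this allows shares of up to 0.0345% of DEP exposed and 0.0336% of Control cells. It does not bound eosinophils that the filters or the gate missed. The Ear genes are thus described without the cell they are named for. Both libraries are labelled as Ccr2 knockouts while the study's design also names wild-type mice; NK cells, which are not gated on Ccr2, had 312 CPM of it (UMIs per 1000000 UMIs of the class) in the library labelled Ccr2-/- and DEP exposed and 342 CPM in the library labelled Ccr2-/- and Control. Where the deletion lies is not given in the sources used here, so a count of 3′ ends does not check the label.

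Each gene had its own spread over the myeloid classes. Lyz2 was high in every monocyte and macrophage class, Chil3 in alveolar macrophages and then classical monocytes, Ear1 in alveolar macrophages, Ear2 in alveolar macrophages, nonclassical monocytes and type 2 dendritic cells, Lyz1 at a low level in type 1 dendritic cells and otherwise in few cells, and Retnla in few cells of any class. All CPM intervals are exact Poisson intervals at 95%, and those of ratios and shares are exact binomial ones. They cover counting error alone. Those of CPM and ratios take each UMI as independent and leave out the spread between the cells of a class. With a single library on each side the variation among animals is unknown and the exposure cannot be tested. B cells, which should make none of these proteins, give a guide to the level that free RNA in the droplets brings. They were shallow, with median depths of 3649 UMIs in the DEP exposed and 3292 in the Control library. The same count of free UMIs per droplet makes a lower CPM in a deeper class, so a CPM like that of B cells need not be free RNA.

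**Figure D1:**
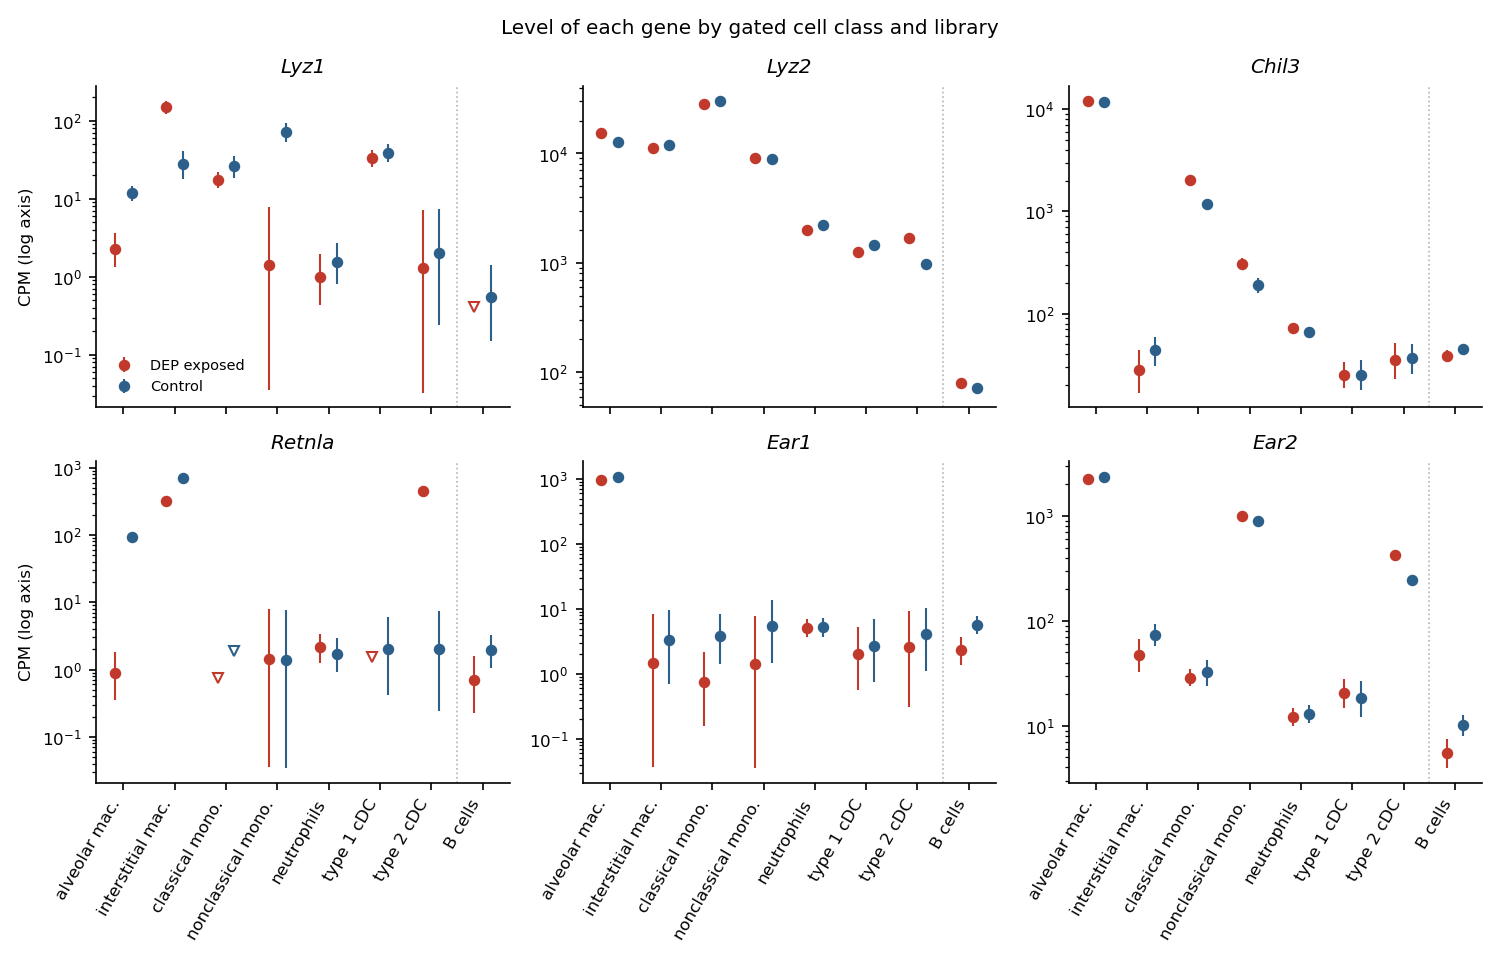
CPM on a log axis for each gene (panels) in the 7 myeloid classes and in B cells (right of the dotted line), DEP exposed in red left of Control in blue; bars are exact 95% Poisson intervals, and an open triangle marks a sum of 0 UMIs, drawn at the level that 3 UMIs would give. Lyz2 spans 972 to 30169 CPM over the myeloid classes, against 80.1 CPM in DEP exposed and 71.3 CPM in Control B cells. Ear1 lies at 984 CPM in DEP exposed and 1089 CPM in Control alveolar macrophages and at no more than 5.45 CPM in the other myeloid classes, against 2.35 CPM in DEP exposed and 5.70 CPM in Control B cells.

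Lyz2 had the most UMIs of the 6 genes in both libraries, 517235 in the DEP exposed and 344253 in the Control library. Classical monocytes, the Ly6C-high cells that enter tissue from blood, had 28358 CPM (28193 to 28524) in the DEP exposed and 30169 CPM (29898 to 30442) in the Control library. Alveolar macrophages, the resident phagocytes of the airspace, had 15293 CPM in the DEP exposed and 12801 CPM in the Control library. Interstitial macrophages had 11287 CPM in the DEP exposed and 11975 CPM in the Control library. Nonclassical monocytes, which patrol vessel walls, had 9063 CPM in the DEP exposed and 8916 CPM in the Control library. Neutrophils followed with 1998 CPM in the DEP exposed and 2226 CPM in the Control library. No 2 neighbours in this order had overlapping intervals within a library, down to the dendritic cells, which changed places: type 1 cells had 1255 CPM in the DEP exposed and 1455 CPM in the Control library, and type 2 cells 1702 CPM in the DEP exposed and 972 CPM in the Control library.

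The Lyz2 difference between the libraries was small in the classes with most of it. The ratio of DEP exposed over Control was 1.19-fold in alveolar macrophages (1.18 to 1.21), 0.940-fold in classical monocytes (log2 -0.09, -0.10 to -0.07) and 1.02-fold in nonclassical monocytes (0.982 to 1.05). In cells thinned to 5000 UMIs each, alveolar macrophages had a median of 64 Lyz2 UMIs in the DEP exposed library (quartiles 48 and 92, 485 cells) and 55 in the Control library (41 and 74, 374 cells), so the cells of both libraries overlapped widely. The 1.75-fold value in type 2 dendritic cells rested on 1 cell: 1 DEP exposed cell held 585 of 1307 Lyz2 UMIs, and without the highest cell of each library the levels were 973 CPM in the DEP exposed and 923 CPM in the Control library. In that class interstitial macrophage markers also stood at 171 CPM in the DEP exposed (6 of 10 markers detected) and 71.9 CPM in the Control library (8 of 10), and neutrophil markers at 497 CPM in the DEP exposed (6 of 10) and 274 CPM in the Control library (8 of 10); their part in the Lyz2 value was not tested.

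In classical monocytes Lyz2 was also spread evenly. The median cell there had 342 Lyz2 UMIs in the DEP exposed library (quartiles 256 and 436) and 270 in the Control library (193 and 325). Median depths were 11762 UMIs per DEP exposed cell and 8709 per Control cell, and every one of the 329 DEP exposed and 179 Control cells had at least 1 Lyz2 UMI. The Gini coefficient, 0 for an equal split over cells, was 0.248 in the DEP exposed and 0.226 in the Control library, against 0.645 in DEP exposed and 0.648 in Control neutrophils. After thinning to 1000 UMIs, 60.9% of neutrophils in the DEP exposed (58.9% to 62.7%) and 62.1% in the Control library (60.3% to 63.9%) had a Lyz2 UMI, while 8.10% of DEP exposed and 5.87% of Control B cells had one. Before thinning the shares were 80.9% of DEP exposed neutrophils (median depth 2892 UMIs) and 78.8% of Control neutrophils (2679 UMIs). In B cells they were 26.5% of DEP exposed cells (3649 UMIs) and 20.9% of Control cells (3292 UMIs).

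Lyz1, the other lysozyme, was rare, and its largest values came from single cells. Its share of the lysozyme UMIs (Lyz1 and Lyz2 together) was 0.0150% in the DEP exposed and 0.0931% in the Control alveolar macrophages. The class with an even level was the type 1 dendritic cell, specialised in presenting antigen to CD8 T cells: 32.9 CPM in the DEP exposed (25.34 to 42.01) and 38.9 CPM in the Control library (29.5 to 50.4), a ratio of 0.845 with an interval from 0.582 to 1.23. There 42 of 118 DEP exposed cells and 39 of 97 Control cells had a Lyz1 UMI, the highest cell held 4 UMIs in the DEP exposed and 6 in the Control library, and Lyz1 made 2.55% of the DEP exposed and 2.61% of the Control lysozyme UMIs. B cells had 0 Lyz1 UMIs in the DEP exposed library, which allows up to 0.416 CPM, and 4 UMIs, 0.556 CPM, in the Control library. Thinned to 1000 UMIs, 5.08% of type 1 dendritic cells in the DEP exposed (1.89% to 10.7%) and 1.04% in the Control library (0.0264% to 5.67%) kept a Lyz1 UMI, intervals that overlap.

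Where a macrophage or monocyte class had more than 1 Lyz1 UMI, its highest cell held 11.1% to 91.1% of them. Classical monocytes had 17.6 CPM in the DEP exposed and 26.1 CPM in the Control library. The highest cell held 28 of 70 UMIs in the DEP exposed and 22 of 41 in the Control library. Interstitial macrophages had 149 CPM in the DEP exposed and 28.0 CPM in the Control library, but 1 DEP exposed cell held 92 of 101 UMIs, and without the highest cell of each library the levels were 13.6 CPM in the DEP exposed and 18.4 CPM in the Control library. Nonclassical monocytes had 1 UMI in the DEP exposed and 52 in the Control library, 45 of them in 1 cell, a log2 ratio of -5.08 (-11.0 to -3.11). Alveolar macrophages had 18 UMIs in the DEP exposed and 82 in the Control library, 53 of them in 1 cell. Without the highest cell of each library the levels were 2.04 CPM in the DEP exposed and 4.24 CPM in the Control library. Over all kept cells, 8 DEP exposed and 13 Control cells with at least 10 Lyz1 UMIs, a threshold chosen after the values were seen, held 53.7% of the gene's UMIs in the DEP exposed and 76.9% in the Control library. Nearest to the threshold, DEP exposed cells had 12 UMIs inside and 7 outside it, and Control cells 13 inside and 9 outside it. Of these 21 cells 13 were ambiguous and 2, both DEP exposed, had been gated as T cells, which held 119 and 18 UMIs.

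**Figure D2:**
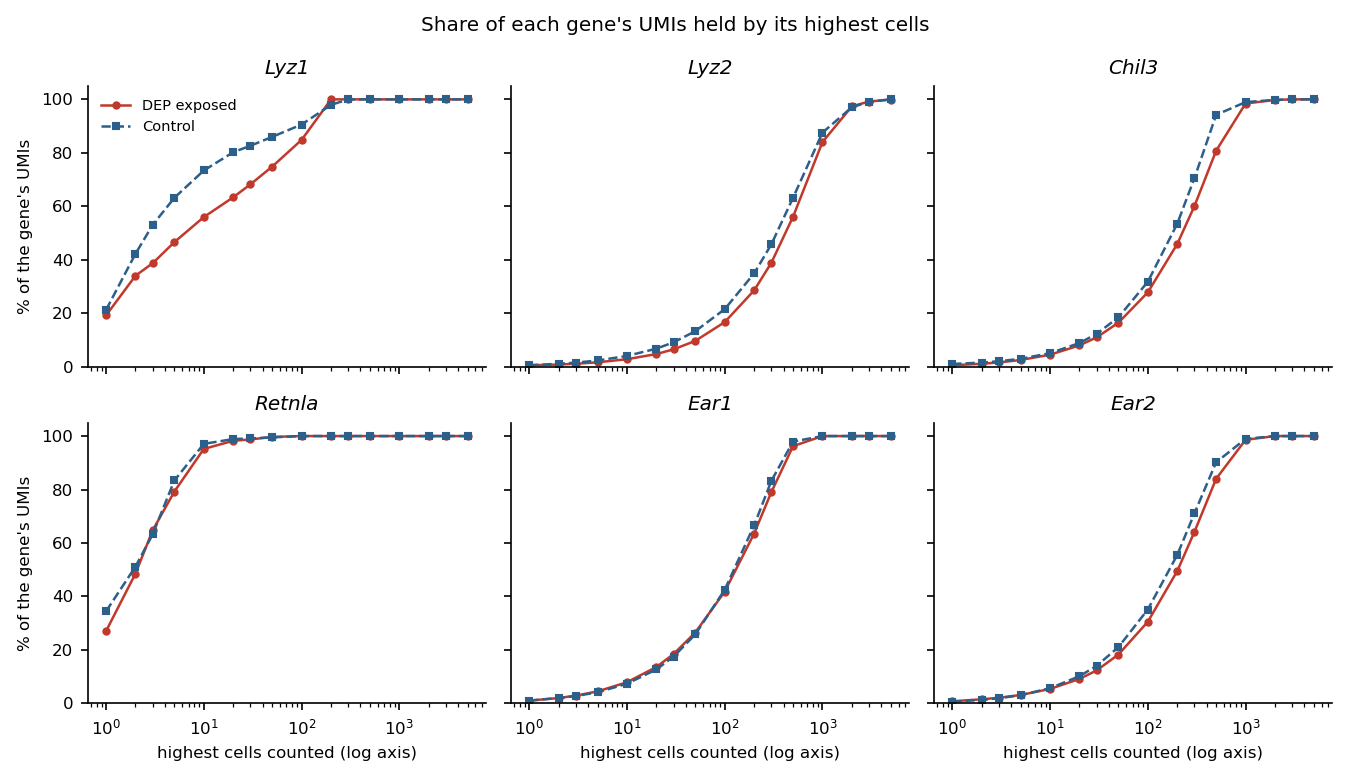
Percent of each gene's UMIs (vertical axis) held by its highest cells, counted over all kept cells from the highest down (horizontal, log axis), with DEP exposed as a red solid line and Control as a blue dashed line. The 10 highest cells held 95.2% of the Retnla UMIs in the DEP exposed and 97.1% in the Control library, 56.0% of the DEP exposed and 73.4% of the Control Lyz1 UMIs, and 2.80% of the DEP exposed and 4.03% of the Control Lyz2 UMIs.

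Chil3 stood highest in alveolar macrophages, and there the libraries were nearly level. Its sum was 12015 CPM in the DEP exposed (11939 to 12092) and 11843 CPM in the Control library (11762 to 11924), a 1.01-fold ratio. The median alveolar macrophage had 168 Chil3 UMIs in the DEP exposed (quartiles 114 and 234) and 191 in the Control library (143 and 264). Median depths were 15020 UMIs per DEP exposed and 16994 per Control cell, and 516 of 517 DEP exposed and 399 of 401 Control cells had at least 1 UMI. Alveolar macrophages held 67.8% of the Chil3 UMIs of kept cells in the DEP exposed and 66.9% in the Control library. Neutrophils had 72.1 CPM in the DEP exposed and 65.8 CPM in the Control library. Interstitial macrophages and both dendritic cell classes had 25.2 to 43.7 CPM, beside 38.8 CPM in DEP exposed and 45.2 CPM in Control B cells. Counted per cell, interstitial macrophages had 0.247 Chil3 UMIs in the DEP exposed and 0.448 in the Control library. B cells, at a lower depth, had 280 UMIs in 1795 DEP exposed and 325 in 1969 Control cells.

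Classical monocytes carried more Chil3 in the DEP exposed library. They had 2040 CPM (1996 to 2085) in the DEP exposed and 1169 CPM (1117 to 1224) in the Control library, 1.74-fold (1.66 to 1.84). The median cell had 16 Chil3 UMIs in the DEP exposed library (quartiles 2 and 41) and 3 in the Control library (1 and 15). The highest cell had 131 UMIs in the DEP exposed and 79 in the Control library, the highest 1% of cells held 4.53% of the DEP exposed and 7.72% of the Control Chil3, and without the highest cell the levels were 2012 CPM in the DEP exposed and 1126 CPM in the Control library. Depth differed in the same direction, 11762 UMIs per DEP exposed and 8709 per Control cell. With every cell thinned to 5000 UMIs, the median was 7 in 309 DEP exposed cells and 2 in 170 Control cells, and 43.0% of DEP exposed (37.5% to 48.8%) and 24.7% of Control cells (18.4% to 31.9%) had at least 10 Chil3 UMIs. The groups overlapped, with 20.7% of DEP exposed and 31.2% of Control cells at 0. Markers of alveolar macrophages, the class with most Chil3, summed to 33.0 CPM (27.6 to 39.1; 10 of 10 detected) in the DEP exposed and 41.3 CPM (31.9 to 52.7; 7 of 10) in the Control classical monocytes.

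**Figure D3:**
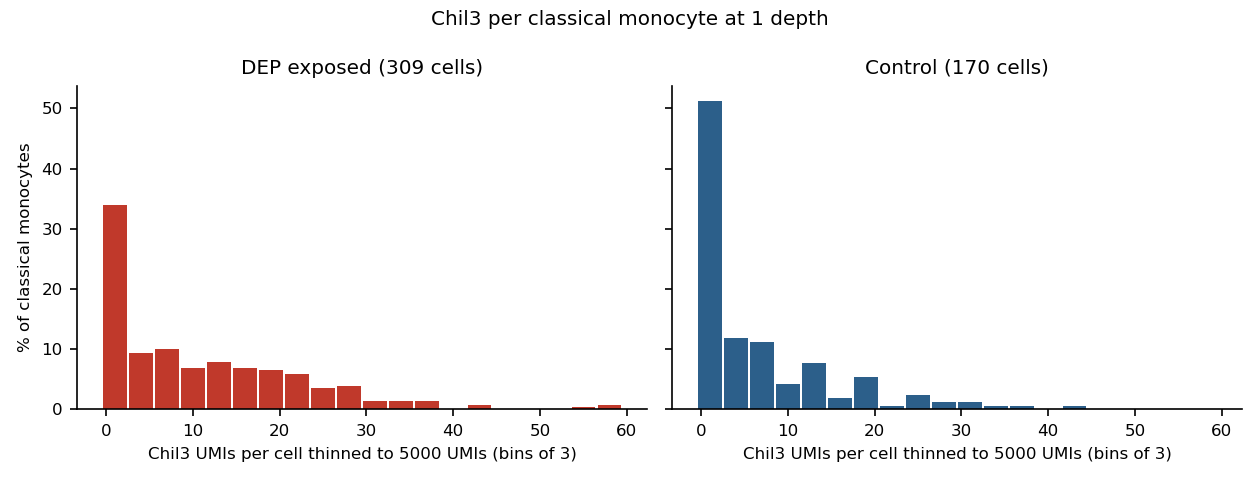
Percent of classical monocytes (vertical axis) by Chil3 UMIs per cell after thinning each cell to 5000 UMIs (horizontal axis, bins of 3 UMIs), with 309 DEP exposed cells on the left and 170 Control cells on the right. The lowest bin, 0 to 2 UMIs, holds 34.0% of the DEP exposed and 51.2% of the Control cells, and the rest of the cells spread over a long right tail in both.

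The Chil3 difference was present on both sides of each split of the classical monocytes tried, splits chosen after the data were seen. Among cells with a transcript of H2-Ab1, a gene of antigen presentation that mature monocyte-derived cells carry, Chil3 was at 1667 CPM in 144 DEP exposed and 829 CPM in 75 Control cells. Among cells without it, Chil3 was at 2358 CPM in 185 DEP exposed and 1417 CPM in 104 Control cells. Among cells with Saa3 or Lrg1, which encode acute phase proteins, it was at 2129 CPM in 136 DEP exposed cells and 1034 CPM in only 7 Control cells, and among cells without them at 1950 CPM in 193 DEP exposed and 1174 CPM in 172 Control cells. Nonclassical monocytes had 306 CPM of Chil3 in the DEP exposed and 191 CPM in the Control library, 1.60-fold (1.29 to 2.00), but the median cell of either library had none, and 1 cell held 49 of 217 UMIs in the DEP exposed and 35 of 140 in the Control library. Interstitial macrophage markers summed to 66.3 CPM in the DEP exposed (7 of 10 detected) and 19.1 CPM in the Control nonclassical monocytes (5 of 10), and alveolar macrophage markers to 100.2 CPM in the DEP exposed (6 of 10) and 132 CPM in the Control library (7 of 10); their part in the Chil3 value was not tested.

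Retnla was the most unequal of the 6 genes: nearly all of its UMIs lay in a few cells. The kept cells had 2145 Retnla UMIs in the DEP exposed and 5073 in the Control library, the highest cell held 580 UMIs in the DEP exposed and 1748 in the Control library, and only 57 DEP exposed and 75 Control cells had any. Cells with at least 10 Retnla UMIs numbered 13 of 8690 in the DEP exposed and 13 of 8940 in the Control library and held 96.7% of the DEP exposed and 98.4% of the Control UMIs. The threshold was chosen after the values were seen, and under it the highest cell had 7 UMIs in the DEP exposed and 8 in the Control library. These cells were deep, with median totals of 21023 UMIs in the DEP exposed and 19103 in the Control library, and 5 DEP exposed and 8 Control ones were ambiguous. Another 2, both DEP exposed, had been gated as T cells, with 580 and 91 Retnla UMIs.

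Because so few cells hold it, the class levels of Retnla turn on single cells. Interstitial macrophages had 324 CPM in the DEP exposed (the highest cells at 90, 70 and 43 UMIs) and 693 CPM in the Control library, where 1 cell held 614 of 619 UMIs; without the highest cell of each library the levels were 193 CPM in the DEP exposed and 5.73 CPM in the Control library. Type 2 dendritic cells had 348 UMIs in the DEP exposed library, 347 of them in 1 cell, and 2 in the Control library. Alveolar macrophages had 7 UMIs in the DEP exposed and 633 in the Control library, 410 and 215 of them in 2 cells. Classical monocytes had no Retnla UMI in either library, which allows up to 0.755 CPM in the DEP exposed and 1.91 CPM in the Control library. No class had Retnla spread over many cells in either library.

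The 26 cells with at least 10 Retnla UMIs shared other transcripts. C1qa, C1qb and C1qc, complement chains that are among the markers used to gate interstitial macrophages, were detected in 20, 23 and 19 of them, Fcrls, an Fc receptor-like gene, in 23, and Mgl2, a C-type lectin, in 22. Fcrls stood at 546 CPM in these cells and 22.0 CPM in the other gated myeloid cells, C1qb at 2055 CPM in these and 192 CPM in the others, and Ccl24, an eosinophil-attracting chemokine, at 129 CPM in these and 6.56 CPM in the others. Lyz1 stood at 594 CPM in them and 10.6 CPM in the others, and 5 of the 26 cells had at least 10 UMIs of both Lyz1 and Retnla while 12 had no Lyz1. Gated myeloid cells were mostly neutrophils, 2612 of 3895 in the DEP exposed and 2765 of 3795 in the Control library. By cluster, 10 of the 26 lay with interstitial macrophages and 5 with alveolar macrophages. Gated interstitial macrophages had their 10 markers, C1qa, C1qb and C1qc included, at 25088 CPM in the DEP exposed and 20786 CPM in the Control library. The C1q values are thus not particular to the 26 cells. Ccl24 was among the leading genes of the interstitial macrophage cluster, and Mgl2 is among the markers used to gate type 2 dendritic cells. Fcrls, Ccl24 and Mgl2 were not set against these 2 classes alone, so they cannot be called particular to the 26 cells either. Arg1, arginase and another mark of macrophages that have met type 2 cytokines, had no UMI in any of the 26. Siglecf, a marker of alveolar macrophages, was seen in 8, Cd3e of T cells in 3 and Cd79a of B cells in 3; the part of mixed droplets in these counts was not tested.

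Ear1 and Ear2 shared alveolar macrophages and parted in nonclassical monocytes and type 2 dendritic cells. Ear2 had 2273 CPM in the DEP exposed (2240 to 2307) and 2371 CPM in the Control alveolar macrophages (2335 to 2408), a ratio of 0.958 (0.938 to 0.979). Ear1 had 984 CPM in the DEP exposed and 1089 CPM in the Control alveolar macrophages, a ratio of 0.904 (0.875 to 0.933). The median alveolar macrophage had 31 Ear2 UMIs in the DEP exposed and 37 in the Control library, and 12 Ear1 UMIs in the DEP exposed and 16 in the Control library. Within the class the copies went together from cell to cell, with a Spearman coefficient of 0.51 over 517 DEP exposed and 0.43 over 401 Control cells, both cell sets sharing library and depth, against 0.13 to 0.30 in the DEP exposed and 0.054 to 0.33 in the Control library for the 5 other pairs among Lyz2, Chil3, Ear1 and Ear2. The Ear pair was identical at 98.7% of the last 300 bases. The part of reads of 1 copy counted as the other in its coefficient was not tested. At 5000 UMIs per cell, 10.5% of DEP exposed and 7.22% of Control alveolar macrophages had no Ear1 UMI, and 1.24% of DEP exposed and 0.802% of Control ones had no Ear2 UMI.

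In nonclassical monocytes and type 2 dendritic cells the Ear UMIs were nearly all Ear2. Nonclassical monocytes had 705 UMIs of Ear2 and 1 of Ear1 in the DEP exposed, and 653 and 4 in the Control library. Ear1 thus made 0.142% of the pair in the DEP exposed (0.00359% to 0.787%) and 0.609% in the Control library (0.166% to 1.55%), against 30.2% in DEP exposed and 31.5% in Control alveolar macrophages. Type 2 dendritic cells had 326 Ear2 and 2 Ear1 UMIs in the DEP exposed, and 240 and 4 in the Control library. Neutrophils had an Ear1 share of 29.7% in the DEP exposed (22.2% to 38.1%) and 28.8% in the Control library (21.4% to 37.1%), intervals that hold the alveolar macrophage shares, from 97 Ear2 UMIs in all DEP exposed and 99 in all Control neutrophils. In interstitial macrophages, classical monocytes and type 1 dendritic cells, each with at most 6 Ear1 UMIs, the share was 3.03%, 2.56% and 9.09% in the DEP exposed and 4.35%, 10.5% and 12.9% in the Control library. The nonclassical monocyte counts also bound the mixing of the copies in the authors' counting: whatever share of Ear2 reads was counted as Ear1, it gave at most the 1 DEP exposed and 4 Control Ear1 UMIs seen in nonclassical monocytes. The reverse, Ear1 reads counted as Ear2, has no such bound, since no class had Ear1 without Ear2, and more windows of Ear1 than of Ear2 are shared with other genes.

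**Figure D4:**
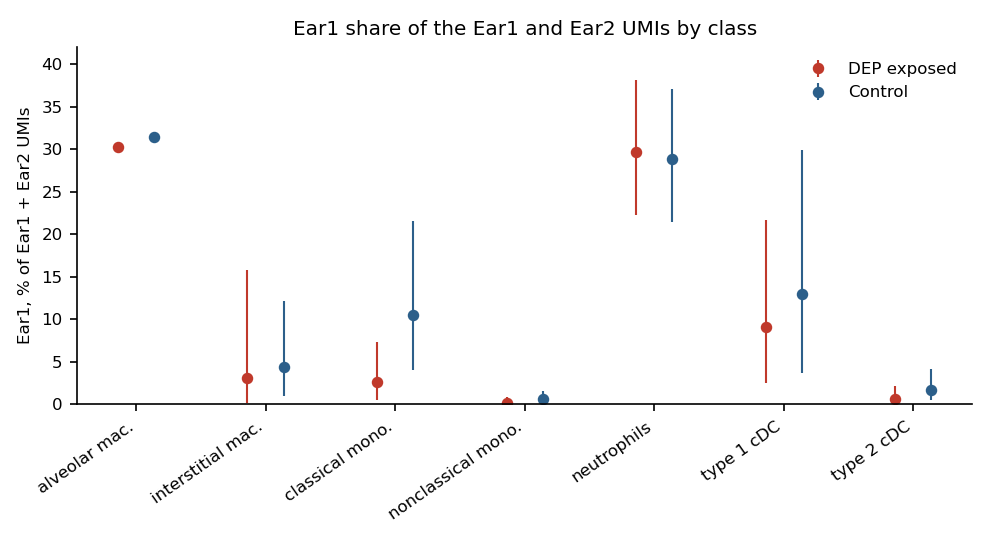
Ear1 as a percent of the Ear1 and Ear2 UMIs (vertical axis) in each of the 7 myeloid classes, with DEP exposed in red left of Control in blue and exact 95% binomial intervals as bars. Alveolar macrophages (30.2% DEP exposed, 31.5% Control) and neutrophils (29.7% DEP exposed, 28.8% Control) stand above nonclassical monocytes (0.142% DEP exposed, 0.609% Control).

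The Ear2 level of nonclassical monocytes was 995 CPM in the DEP exposed (923 to 1071) and 890 CPM in the Control library (823 to 961), and 113 of 126 DEP exposed and 127 of 154 Control cells had a UMI. Thinned to 1000 UMIs, 66.7% of them in the DEP exposed (57.6% to 74.9%) and 49.0% in the Control library (40.9% to 57.2%) kept one, against 1.06% of DEP exposed and 0.978% of Control B cells. At 5000 UMIs per cell the median was 3.5 Ear2 UMIs in the 62 DEP exposed and 4.5 in the 52 Control cells left, the other way round, so no order of the libraries follows from the shares. Type 2 dendritic cells had 425 CPM of Ear2 in the DEP exposed and 243 CPM in the Control library, 1.75-fold (1.47 to 2.07), from 54 DEP exposed and 71 Control cells. Alveolar macrophage markers there summed to 87.2 CPM in the DEP exposed and 57.7 CPM in the Control library (8 of 10 detected in each), and their part was not tested. The highest cell held 10.1% of the DEP exposed and 14.2% of the Control UMIs. The thinned shares, 19.2% of DEP exposed (9.63% to 32.5%) and 21.1% of Control cells (12.3% to 32.4%), overlapped. Classical monocytes had 28.7 CPM of Ear2 in the DEP exposed and 32.4 CPM in the Control library.

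Set side by side, few of the differences past 1.5-fold were held by many cells. Of genes with at least 50 summed UMIs, 14.3% were past 1.5-fold in either direction in classical monocytes, and of the 4 genes described here that reached that sum, 1 was, Chil3. In alveolar macrophages 4.59% of all genes and 2 of 6, Lyz1 and Retnla, were past it, both lower in the DEP exposed library. Of these Retnla rested on 2 Control cells, while Lyz1 stayed lower without its highest cells, at fewer than 50 summed UMIs. In interstitial macrophages 12.4% of all genes and 4 of 5 were past it: Lyz1 higher, and Retnla, Chil3 and Ear2 lower. Lyz1 and Retnla rested on 1 cell each, and 1 cell held 27 of 32 DEP exposed and 42 of 66 Control Ear2 UMIs. Chil3 had a CPM near that of the shallower B cells. In nonclassical monocytes 10.7% of all genes and 2 of 4, Chil3 higher and Lyz1 lower, were past it. In type 2 dendritic cells 12.9% of all genes and 3 of 4, Lyz2, Retnla and Ear2, all higher, were past it. In neutrophils 10.4% and in type 1 dendritic cells 11.8% of all genes were past it, and none of the 4 described genes counted in each.

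**Figure D5:**
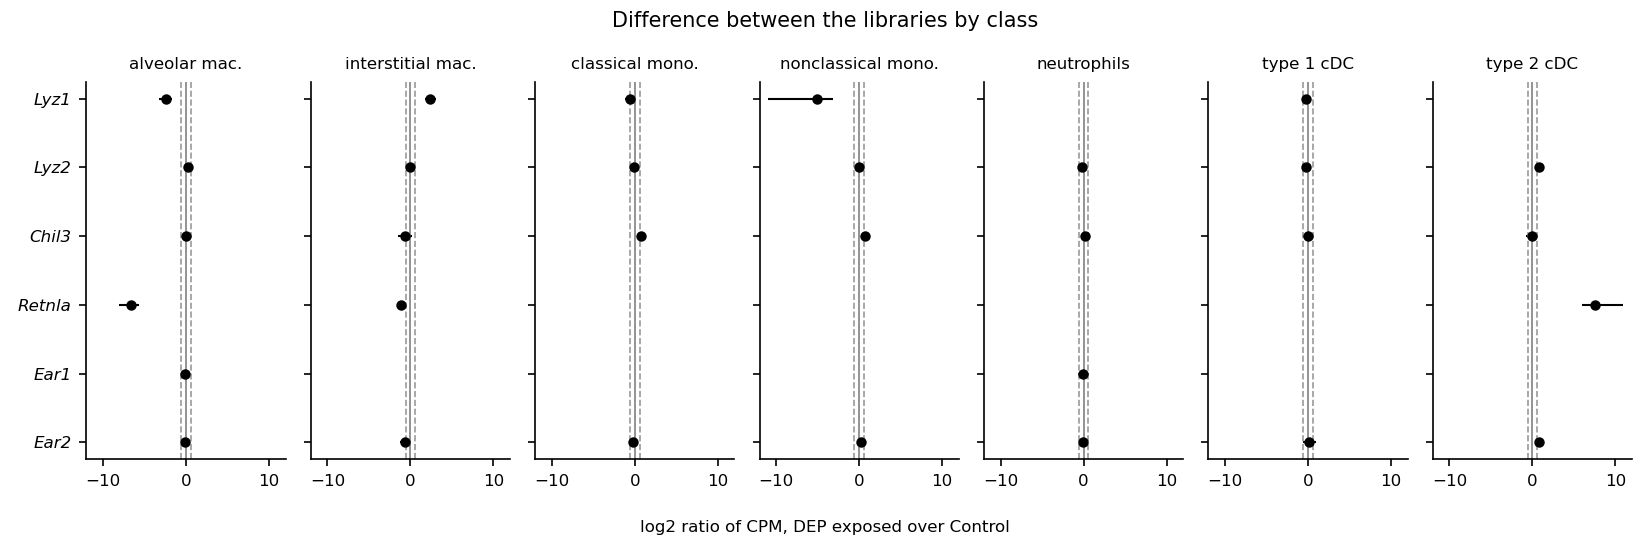
Log2 ratio of CPM, DEP exposed over Control (horizontal axis), for each gene with at least 50 summed UMIs in a class (panels), with exact 95% binomial intervals as bars, a grey line at 0 and dashed lines at 1.5-fold in each direction. The bars leave out the spread between cells. Chil3 in classical monocytes stands at 0.80 (0.73 to 0.88). The Retnla points at -6.59 in alveolar macrophages and 7.49 (5.94 to 10.9) in type 2 dendritic cells rest on 1 or 2 cells.

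Apart from Retnlg in neutrophils, relatives of the 6 genes were sparse in these cells. None of the 5 other lysozyme-like genes listed reached 20 summed UMIs in any of the 7 classes. Retnlg, a resistin-like gene of mouse neutrophils, was by far the most abundant relative, with 9622 CPM in the DEP exposed and 6393 CPM in the Control neutrophils, a log2 ratio of 0.59 (0.57 to 0.61). Chil1, a chitinase-like gene, had 212 CPM there in the DEP exposed and 176 CPM in the Control library, and Retn, resistin itself, 62.3 CPM in the DEP exposed and 83.7 CPM in the Control library. In alveolar macrophages Rnase4 and Rnase6, ribonucleases of the same superfamily as the Ear genes, had 66.7 and 47.7 CPM in the DEP exposed and 87.3 and 50.8 CPM in the Control library. In classical monocytes Ctbs, a lysosomal chitobiase, had 25.2 CPM in the DEP exposed and 13.4 CPM in the Control library.

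Genes of alternative macrophage activation, the state that Chil3 and Retnla are used to mark, leaned lower in the DEP exposed library in several classes. This list and that of type 2 cytokine receptors were chosen with earlier results of these data known. Their counts beside all genes are a description with no test. Lower were 8 of 9 counted members in nonclassical monocytes and 8 of 9 in type 1 dendritic cells. In neutrophils 10 of 15 were lower and in interstitial macrophages 12 of 17. Median log2 ratios in this order were -0.25, -0.22, -0.27 and -0.19, beside -0.04, 0.09, -0.11 and -0.06 over all genes. Lower past 1.5-fold were 3, 3, 3 and 4, beside 10.2%, 5.95%, 11.1% and 13.5% of all genes. At 100 summed UMIs, 7 of 7, 6 of 7, 3 of 6 and 10 of 14 were lower, in the same order. In type 2 dendritic cells 10 of 16 were higher and 6 lower, with a median of 0.16 beside -0.10 over all genes. There 4 were higher and 4 lower past 1.5-fold, beside 6.56% and 15.6% of all genes. In alveolar macrophages, of 16 members with at least 20 summed UMIs, 3 were higher and 13 lower, 4 of them past 1.5-fold. The median log2 ratio there was -0.18 beside -0.08 over all 10510 genes counted, of which 5.38% were lower past 1.5-fold. At 100 summed UMIs, 1 of 13 was lower past it, beside 2.23% of all genes. Mrc1, the mannose receptor, had 979 CPM in the DEP exposed and 1042 CPM in the Control library, and Fcrls 0.764 CPM in the DEP exposed and 4.51 CPM in the Control library. Markers of other cells were lower there too. Those of interstitial macrophages summed to 28.0 CPM in the DEP exposed (7 of 10 detected) and 56.1 CPM in the Control library (8 of 10). Those of type 2 dendritic cells summed to 18.6 CPM in the DEP exposed (7 of 7) and 34.3 CPM in the Control library (6 of 7). Their part in the list's values was not tested, and Ccl17, Cd163, Clec10a and Mgl2 are on the list and among those markers. For the receptors of type 2 cytokines and their signal chain, all 9 members counted in alveolar macrophages were lower, 2 past 1.5-fold, with a median of -0.28. Il4ra, a shared receptor chain for these cytokines, had 52.6 CPM there in the DEP exposed and 79.4 CPM in the Control library. Stat6, their transcription factor, had 84.4 CPM in the DEP exposed and 84.9 CPM in the Control library. In the other classes this list was mixed. Higher were 3 of 7 members in interstitial macrophages, 3 of 9 in classical and 4 of 7 in nonclassical monocytes. Higher too were 7 of 10 in neutrophils, 3 of 7 in type 1 and 2 of 8 in type 2 dendritic cells. Medians in this order were -0.08, -0.08, 0.08, 0.08, -0.05 and -0.14, beside -0.06, -0.04, -0.04, -0.11, 0.09 and -0.10 over all genes. In classical monocytes, where 9.45% of the 8374 genes counted were higher and 10.2% lower past 1.5-fold, 2 of 13 alternative activation genes were higher and 3 lower past it, with a median of -0.12 beside -0.04 over all genes. There Il10, a cytokine that restrains inflammation, had 12.3 CPM in the DEP exposed and 3.18 CPM in the Control library, Mrc1 4.53 CPM in the DEP exposed and 14.6 CPM in the Control library, and Fn1, fibronectin, 1038 CPM in the DEP exposed and 1458 CPM in the Control library. Type 2 dendritic cell markers summed to 152 CPM in the DEP exposed (7 of 7 detected) and 250.4 CPM in the Control classical monocytes (6 of 7). Interstitial macrophage markers summed to 48.3 CPM in the DEP exposed (8 of 10) and 31.1 CPM in the Control library (9 of 10), and the part of both in these values was not tested.

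Other secreted antibacterial proteins were mostly higher in the DEP exposed monocytes and neutrophils. The list was chosen with earlier results of these data known, so its counts beside all genes are a description with no test. Over the other classes, 6 of 7 counted members were higher in nonclassical monocytes and 6 of 9 in alveolar macrophages, against 3 of 5 in interstitial macrophages, 3 of 6 in type 1 and 2 of 6 in type 2 dendritic cells. In this order, 4, 1, 0, 1 and 0 of them were higher past 1.5-fold, beside 8.16%, 2.39%, 6.47%, 13.1% and 6.56% of all genes. Their median log2 ratios were 1.01, 0.11, 0.01, 0.13 and -0.11, beside -0.04, -0.08, -0.06, 0.09 and -0.10 over all genes. In classical monocytes 7 of 9 were higher and 5 of them past 1.5-fold, a step that 9.45% of all genes made, with a median log2 ratio of 0.83 beside -0.04 over all genes. Lcn2, lipocalin, which withholds iron from bacteria, had 320 UMIs (80.6 CPM) in the DEP exposed and 5 (3.18 CPM) in the Control classical monocytes. Wfdc21, a whey acidic protein of the antiprotease type, had 368 UMIs in the DEP exposed and 0 in the Control library, and Wfdc17 1914 CPM in the DEP exposed and 1079 CPM in the Control library. Lgals3, a galectin, had 2259 CPM in the DEP exposed and 2238 CPM in the Control library. Neutrophil markers summed to 474 CPM in the DEP exposed (10 of 10 detected) and 379 CPM in the Control classical monocytes (8 of 10, Asprv1 and Stfa2l1 at 0), and their part in these values was not tested. In neutrophils, where 4.59% of the 8679 genes counted were higher past 1.5-fold, 11 of 12 members were higher and 5 past it. Camp, the cathelicidin, had 291 CPM in the DEP exposed and 71.8 CPM in the Control library, and Ngp, another granule protein, 535 CPM in the DEP exposed and 153 CPM in the Control library. Camp and Ngp led an unnamed cluster that took in 24 of the 2612 DEP exposed and 14 of the 2765 Control neutrophils. These held 99.1% of the DEP exposed and 99.6% of the Control Camp UMIs. Without them, an alternative chosen after seeing the data, Camp was at 2.58 CPM in the DEP exposed and 0.265 CPM in the Control library. There 10 of 12 members were higher, 2 of them past 1.5-fold. Classical monocyte markers in neutrophils summed to 241 CPM in the DEP exposed and 161 CPM in the Control library (8 of 8 detected in each), and their part in these values was not tested. Lyz2 in the same neutrophils had a ratio of 0.898.

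The genes with the most similar course to each of the 6 were taken over 14 points, 7 classes in 2 libraries, by the Pearson coefficient of log2(CPM + 10) among 3279 eligible genes. The points share libraries and depth, and the coefficients are a description with no test. Ear1 was nearest to Kcnn3, C530008M17Rik, Cidec, Krt19 and Cpne5, all at 1.00 after rounding, of which Cidec and Krt19 are among the gate's alveolar macrophage markers. Chil3 was nearest to Emilin1 (0.95), Ms4a8a (0.95), Galns, Rnf217 and Sort1. Ear2 was nearest to Sh2d1b1 (0.96), Ppp3r1 (0.95), Lta4h, Adrb1 and Ggta1, and Lyz2 to Plod3 (0.92), Lamp1 (0.91), Fcgr1, Tcirg1 and Tlr7. Retnla was nearest to Fcrls (0.87), Gadd45g (0.84), Blnk, C1qa and C1qb, and Lyz1 to Tubb2a (0.82), Tns3 (0.74), Fam213b, Sash1 and Serpinb8. Among the 6 themselves the highest coefficients were 0.78 for Chil3 with Ear1 and 0.70 for Lyz2 with Chil3, and the lysozyme pair had 0.28.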

How the data were processed

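Single-cell RNA was counted in 2 libraries, 1 DEP exposed and 1 Control. The deposited tables hold raw UMI counts, which the authors obtained with Cell Ranger on mm10 per the submitters' processing notes; these give version 3.1.3, the file headers 3.1.0. Barcodes needed 500 UMIs and 200 genes, with a mitochondrial share of 10% at most. Doublets were scored against simulated ones, and the highest scores were removed at a preset rate of 0.8% per 1000 cells (706 DEP exposed, 751 Control). A cell took the class with the largest share of its markers detected, 3 at least; it was ambiguous where another class had 3 markers and 0.5 of that share. UMIs were summed by class and library into CPM. Log2 ratios had 0.5 counts added and were checked on Poisson counts simulated from class sums. That check did not cover UMIs gathered in single cells. Clusters (scanpy 1.11.5, igraph 0.11.9, Python 3.11.15) served as an alternative. The genes, markers and lists were chosen with earlier results of these data known. All 6 genes are described; of each list, the 2 genes with most UMIs and the 2 with the largest ratio by its nearer bound were eligible to be named, and some of these are given. Sequences matched 6 of 6 genes in RefSeq (GRCm38.p6) and GENCODE M21. With 1 library on each side no test was made, and intervals cover counting error only. Cell classes were rebuilt here from markers.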

Additional observations from a re-analysis of the deposited data

Results flagged for a closer look

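For 2 genes the libraries differed in opposite directions in different classes, with the counting interval beyond 1.5-fold on each side; the difference between classes was not tested. The log2 ratio of Lyz1, DEP exposed over Control, was 2.39 (1.77 to 3.11) in interstitial macrophages, where 1 DEP exposed cell held 92 of 101 UMIs. It was -2.35 (-3.20 to -1.63) in alveolar macrophages, where 1 Control cell held 53 of 82 UMIs, and -5.08 (-11.0 to -3.11) in nonclassical monocytes, where 1 Control cell held 45 of 52. The log2 ratio of Retnla was 7.49 (5.94 to 10.9) in type 2 conventional dendritic cells, where 1 DEP exposed cell held 347 of 348 UMIs. It was -6.59 (-8.01 to -5.64) in alveolar macrophages, where 2 Control cells held 410 and 215 of 633 UMIs, and -1.10 (-1.33 to -0.87) in interstitial macrophages, where 1 Control cell held 614 of 619.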

How the results depend on the processing

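No paired analysis was possible because each group has 1 library. Of 31 ratios under 13 alternatives, giving 400 values, 317 lay inside the main counting interval, 71 lay outside it, and the other 12 turned the sign of a ratio past 1.5-fold. Whatever the size of the ratio, 37 values had the other sign, in 17 ratios, and 14 ratios kept their sign under all. The ratio of Chil3 in classical monocytes ran from 0.73 to 0.95, and the subsets and thinning added after the data were seen gave 0.73 to 1.04. The median of the antibacterial list in neutrophils was 0.31, and 0.21 without the cluster led by Camp and Ngp. Where a value moved, the cause was not tested unless the setting removes a cell or a count.

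On the log2 scale, Lyz1 in interstitial macrophages was -1.17 with classes from clusters, 0.86 with 1 more marker required, -0.81 with 1 fewer, -0.41 without the highest cell and -0.41 without the highest 1% of cells, and 1.76 thinned to 1000 UMIs. Retnla there was -2.19 with clusters, -2.98 with 1 more marker, 5.10 with 1 fewer, -0.22 with each cell weighing the same, 4.95 without the highest cell and 4.95 without the highest 1%, and -0.39 thinned. Chil3 there was 0.093 with 1 more marker, and Ear2 there 0.13 with cells weighing the same. In type 2 dendritic cells Lyz2 was -0.0098 with 1 fewer marker, and Retnla -0.28 with 1 more and -0.27 with 1 fewer. Lyz2 in classical monocytes was -0.029 with clusters, -0.030 with 1 more marker, -0.12 with 1 fewer, -0.073 with cells weighing the same and -0.063 thinned. In alveolar macrophages Chil3 was 0.063 with clusters, -0.0075 with cells weighing the same and -0.033 without cycling cells; Ear1 was -0.091 with clusters and -0.24 thinned; Ear2 was 0.0093 with clusters and -0.10 without cycling cells.

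The count of the described genes past 1.5-fold changed as follows. Where the fold or the least UMI sum was changed, the share of all genes under that rule is given. The other settings have no such share here. In alveolar macrophages (2) it was 1 with clusters, without the highest cell and with free RNA subtracted, and 0 without the highest 1%. In interstitial macrophages (4) it was 2 with clusters, the stricter cell filter, cells weighing the same, 2-fold (2.4% of all genes) and at least 100 UMIs (7.37%). It was 1 there with 1 fewer marker, without the highest cell and without the highest 1%. In classical monocytes (1) it was 3 with clusters, 2 with 1 more marker, 1 fewer and no cell filter, and 0 at 2-fold (2.87% of all genes). In nonclassical monocytes (2) it was 0 with the stricter filter and 1 with 1 fewer marker, cells weighing the same and without the highest cell or 1%. It was also 1 there at 2-fold (1.44% of all genes) and at least 100 UMIs (5.87%). In neutrophils (0) it was 1 with free RNA subtracted and at least 20 UMIs (15.7% of all genes), and in type 1 dendritic cells (0) 3 with clusters. In type 2 dendritic cells (3) it was 1 with 1 more marker, 1 fewer, without the highest cell or 1%, and 2-fold (2.87% of all genes).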

Other observations

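Cells that carried markers of more than 1 class held a large part of these genes. They were 794 of the DEP exposed and 816 of the Control cells. In the DEP exposed library they held 37.0% of the Lyz2, 24.9% of the Chil3, 35.2% of the Lyz1 and 39.6% of the Retnla UMIs of kept cells, and in the Control library 38.8%, 28.3%, 76.6% and 70.1% of these. By cluster, most of their Chil3 lay with alveolar macrophages (90 DEP exposed cells at 9581 CPM and 101 Control cells at 8594 CPM). Those clustered with classical monocytes (256 DEP exposed, 192 Control cells) had 2103 CPM of Chil3 in the DEP exposed and 989 CPM in the Control library. Lyz1 in ambiguous cells was at 18.7 CPM in the DEP exposed and 89.4 CPM in the Control library, where the highest cells held 289, 286 and 147 UMIs.

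Mature dendritic cells (25 DEP exposed, 19 Control) had 76.7 CPM of Lyz2 in the DEP exposed and 99.6 CPM in the Control library, beside 80.1 CPM in DEP exposed and 71.3 CPM in Control B cells. Plasmacytoid dendritic cells (15 DEP exposed, 17 Control) had 65.3 CPM in the DEP exposed and 53.3 CPM in the Control library. Median depths were 13368 UMIs in DEP exposed and 11734 in Control mature dendritic cells, and 9830 and 8776 in plasmacytoid ones. B cells were shallower, with 3649 UMIs in the DEP exposed and 3292 in the Control library. The part of free RNA in these Lyz2 values was not tested.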
